A study of Mus musculus with 2 samples.

Results

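The heat shock proteins and their DNAJ co-chaperones were described in hearts from 2 male B6CASTF1/J mice, an F1 hybrid, at an age of 25 days. The genes were chosen by name: every protein-coding gene whose symbol starts with Hsp or Dnaj, without Hspg2, a proteoglycan gene. This gave 74 genes of the 55536 genes in the tables, of which 22028 are protein-coding. Total RNA was sequenced as 1 library per heart, each from 300 ng of RNA with added ERCC spike-in RNAs. The labels name no treatment, and there is 1 group, so the comparisons below are between members within each heart and between the 2 hearts. The libraries are called replicate 1 (animal 3) and replicate 2 (animal 4). One donor identifier stands on both in the labels, which number them as separate biological replicates, and they were taken as 2 animals.

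Heat shock proteins hold other proteins in a foldable state. HSP70 proteins bind unfolded stretches in cycles driven by ATP, J-domain proteins of the DNAJ families bring clients and trigger ATP hydrolysis, and nucleotide exchange factors reset the cycle, while HSP90 acts later on signalling proteins and chaperonins enclose a protein to fold it. Small heat shock proteins use no ATP and bind filaments and aggregating proteins, and several of them are abundant in striated muscle, where sarcomere proteins are under mechanical load. Some members are made at all times, others are induced through heat shock factor, and separate members serve the mitochondria and the endoplasmic reticulum.

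Levels are given in TPM, a share of all transcripts that corrects for transcript length, and so can be set side by side between genes. Of the 74 genes, 64 reached 1 TPM in both hearts, a share of 86.49%, while 49.5% of all protein-coding genes did. At 100 TPM in both hearts there were 9 members, or 12.16%, against 2.16% of all protein-coding genes. No test was made of either share. Together the members held 3197 TPM in replicate 1 and 3457 TPM in replicate 2, and they took 0.551% and 0.608% of the counts assigned to genes. The levels reached from a count of 0 in both hearts for Dnajc5b, Dnajb7, Dnajb8 and Dnajc5g to 431 ± 16.4 TPM (SD, n = 2) for Hspa8.

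Counts assigned to genes totalled 38253821 in replicate 1 and 40655101 in replicate 2, so that 3 counts correspond to 0.0784 and 0.0738 CPM (counts scaled to the library total). Such limits, and the intervals below, cover counting error only. All 5 cardiomyocyte markers were present, with 19870 and 21050 TPM summed. The 3 endothelial genes summed to 138.9 and 144.1 TPM, and the 3 fibroblast genes to 234.6 and 212.9 TPM. Adipocyte and erythroid markers differed more between the libraries. The 3 adipocyte genes summed to 213.5 TPM in replicate 1 and 29.96 TPM in replicate 2, and 3 erythroid genes to 31230 and 15870 TPM. The hearts are mixed tissue, in which fewer cells of a type and less RNA per cell cannot be told apart.

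The stretches before the transcription start of 8 genes show matches to the elements by which these classes are usually described. They are 250 bases upstream of the RefSeq start on GRCm38.p6, written 5′ to 3′ on the gene's own strand. Of the 74 members, 60 were matched by symbol in the promoter table. The others are Dnajc2, Dnajc5, Dnajc5b, Dnajc11, Dnajc12, Dnajc18, Dnajc22, Dnajc30, Hsp90aa1, Hsp90ab1, Hspa8, Hspa9, Hspa13 and Hspb2. Capitals mark matches to the letters of the heat shock element, the site of heat shock factor, and binding was not tested. Outside Hspd1 they are the shorter form of 2 units defined below, which was found in 16.97% of all genes. Hspd1 is shown for its run of adjoining units, Hspa1a and Hspa1b as near copies, and Hspb1 and Hspb6 as 2 of the abundant small heat shock genes.
Hspd1 (chr1:55087933-55088182, minus strand): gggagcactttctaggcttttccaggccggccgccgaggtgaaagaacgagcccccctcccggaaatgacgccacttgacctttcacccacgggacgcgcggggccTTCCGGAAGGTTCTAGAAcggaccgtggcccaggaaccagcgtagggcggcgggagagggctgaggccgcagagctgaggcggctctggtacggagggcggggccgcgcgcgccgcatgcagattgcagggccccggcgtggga
Hspa1a (chr17:34972157-34972406, minus strand): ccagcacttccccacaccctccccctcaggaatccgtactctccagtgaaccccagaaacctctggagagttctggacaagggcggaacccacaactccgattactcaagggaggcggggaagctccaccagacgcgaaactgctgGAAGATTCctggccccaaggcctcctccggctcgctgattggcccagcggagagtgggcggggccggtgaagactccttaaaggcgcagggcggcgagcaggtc
Hspa1b (chr17:34959239-34959488, minus strand): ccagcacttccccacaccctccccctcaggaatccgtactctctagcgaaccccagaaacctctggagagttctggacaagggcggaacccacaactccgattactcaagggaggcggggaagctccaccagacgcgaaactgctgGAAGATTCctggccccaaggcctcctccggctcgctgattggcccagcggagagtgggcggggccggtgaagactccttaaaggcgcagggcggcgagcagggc
Hspb1 (chr5:135887669-135887918, plus strand): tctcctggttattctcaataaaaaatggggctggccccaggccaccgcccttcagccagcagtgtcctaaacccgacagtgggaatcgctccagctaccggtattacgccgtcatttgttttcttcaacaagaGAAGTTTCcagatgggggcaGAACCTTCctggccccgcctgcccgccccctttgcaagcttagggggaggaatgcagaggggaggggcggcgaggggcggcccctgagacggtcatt
Hspb6 (chr7:30553051-30553300, plus strand): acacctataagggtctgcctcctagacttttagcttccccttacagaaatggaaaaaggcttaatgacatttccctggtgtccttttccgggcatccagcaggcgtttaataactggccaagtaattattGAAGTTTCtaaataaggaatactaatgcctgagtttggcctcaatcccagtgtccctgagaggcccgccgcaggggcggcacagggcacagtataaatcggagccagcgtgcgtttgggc

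The heat shock element was searched on both strands as 3 units (GAANNTTCNNGAA or TTCNNGAANNTTC) and as 2 units (GAANNTTC or TTCNNGAA) in windows reaching from 250 bases before to 50 bases after each start. A match to 3 units holds matches to 2 units, so the counts overlap. The longer form was found in 4 of the 60 matched members, or 6.67%, and in 0.662% of the 27025 genes in the table. These 4 were Hspd1, Hspe1, Hsph1 and Dnajb6. Hspd1 and Hspe1 are transcribed from opposite strands of chromosome 1, and their matches are the same bases, which lie upstream of both RefSeq starts. The shorter form was found in 16 of 60 members, or 26.67%, and in 16.97% of all genes. By class it was present in 4 of the 5 matched small heat shock genes and in 4 of the 5 matched inducible genes, where Dnajb1 had no match in this window. Hspa1a and Hspa1b are both among these inducible genes, and the Hspb8 match lies 3 bases after its start. It was also in 2 of 5 mitochondrial, 4 of 15 cytosolic and nuclear DNAJ, 1 of 9 endoplasmic reticulum and 1 of 8 testis genes. None of the 2 constitutive, 4 other HSP70, 3 partner-named and 4 unclassed genes matched had it. Between the printed Hspa1a and Hspa1b stretches 247 of 250 bases were identical, or 98.8%, and the element is part of the identical bases.

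For the endoplasmic reticulum chaperones the capitals mark the ER stress element, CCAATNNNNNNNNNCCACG or its reverse complement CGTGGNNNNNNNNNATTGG, a site of the unfolded protein response. It was found in 3 of the 60 matched members and in 0.137% of all genes, and it was added to the search after the levels had been seen. All 3 belong to the 9 matched genes of the endoplasmic reticulum class, and Hsp90b1 holds it 2 times, once on each strand. A match describes these letters only.
Hspa5 (chr2:34771840-34772089, plus strand): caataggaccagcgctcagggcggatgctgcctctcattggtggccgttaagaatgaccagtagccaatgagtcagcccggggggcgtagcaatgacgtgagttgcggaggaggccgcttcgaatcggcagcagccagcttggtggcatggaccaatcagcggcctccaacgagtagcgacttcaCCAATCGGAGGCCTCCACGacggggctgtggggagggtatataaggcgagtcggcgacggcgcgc
Hsp90b1 (chr10:86705445-86705694, minus strand): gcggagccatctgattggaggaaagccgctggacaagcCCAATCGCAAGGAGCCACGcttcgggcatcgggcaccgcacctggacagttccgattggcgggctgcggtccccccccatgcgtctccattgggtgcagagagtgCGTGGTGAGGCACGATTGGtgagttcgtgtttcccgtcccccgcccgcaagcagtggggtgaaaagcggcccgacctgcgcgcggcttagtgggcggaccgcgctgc
Dnajc3 (chr14:118937682-118937931, plus strand): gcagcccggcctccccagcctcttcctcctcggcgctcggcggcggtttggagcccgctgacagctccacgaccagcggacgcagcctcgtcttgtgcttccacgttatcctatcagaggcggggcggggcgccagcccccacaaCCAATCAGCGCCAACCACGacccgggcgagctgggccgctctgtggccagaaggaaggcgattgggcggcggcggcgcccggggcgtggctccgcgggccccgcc

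Members were sorted into classes by their known roles, with earlier results of these data known. Hspb9, with 0 and 0.09 TPM, was placed with the testis genes and not in the small heat shock class. The 6 small heat shock genes were the most abundant in total beside the 4 constitutive genes. The small heat shock class summed to 796 and 954 TPM in replicates 1 and 2, and the constitutive class to 946 and 915 TPM, so that they held like shares of the members' TPM (26.25% ± 1.91 and 28.02% ± 2.20, SD, n = 2). The mitochondrial class of 8 genes followed with 592 and 640 TPM, or 18.52% of the members' TPM. The 6 inducible genes held 2.94% ± 0.478, with 105 and 90.02 TPM. By the median member, the constitutive class stood at 229 TPM, the small heat shock class at 125 TPM, the mitochondrial class at 52.3 TPM and the inducible class at 8.76 TPM. The median over all 74 members was 12.2 TPM. In both hearts these 4 medians kept the same order.

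**Figure D1:**
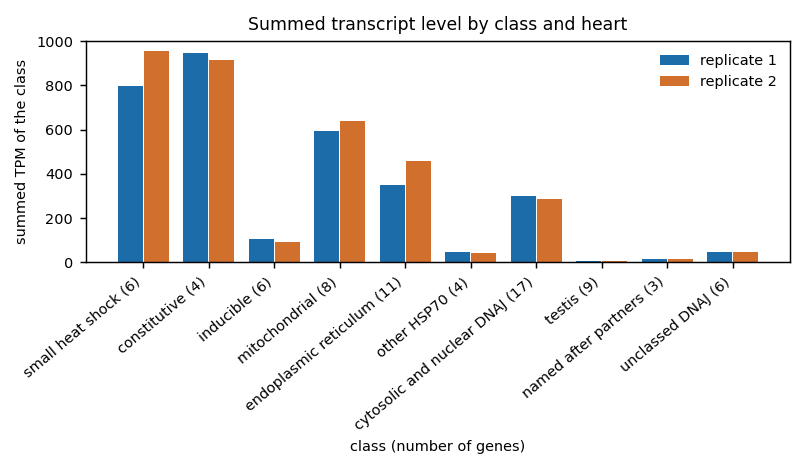
Summed TPM of each class (vertical axis, from 0) in replicate 1 and replicate 2, with the number of genes in brackets. The small heat shock and constitutive classes are the tallest in both hearts, with 796 to 954 TPM, and the inducible class holds 105 and 90.02 TPM.

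Among the small heat shock genes Hspb7 was highest. Hspb7, named the cardiovascular heat shock protein and needed for intact sarcomeres, lies at chr4:141420779-141425311 (mm10) and had 301 TPM in replicate 1 and 373 TPM in replicate 2. Its mean of 337 ± 50.9 TPM (SD, n = 2) placed it at rank 157 of all protein-coding genes. Hspb6, a phosphorylated small heat shock protein of muscle, had 199 and 261 TPM. Hspb1, which binds actin filaments, had 132 and 138 TPM. These 3 stood in the same order in both hearts. Hspb8, which works with Bag3 to clear damaged sarcomere proteins by autophagy, had 109 and 123 TPM, and its range did not reach that of Hspb1.

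Hspb2 and Hspb3, whose products form a complex in muscle, were far apart in level. Hspb2 had 50.1 and 50.5 TPM, whereas Hspb3 had 5.52 and 8.13 TPM, the lowest of the class. The ratio of Hspb7 to Hspb1 was 1.32 ± 0.17 on the log2 scale and that of Hspb6 to Hspb1 was 0.76 ± 0.23 (SD, n = 2; a pseudocount of 0.1 TPM was added in all such ratios). A ratio was counted as different where it had the same sign in both hearts and its mean exceeded its SD, which held for both. No p-value is given, since 2 hearts are too few for a test of the sign to pass any usual threshold. The eye lens and muscle protein Cryab, a small heat shock protein whose symbol lies outside the naming rule, had 717 and 793 TPM, above every member. Hspb2 and Cryab lie on opposite strands of chromosome 9 with overlapping 5′ parts and starts 1029 bases apart, and their annotated exons overlap on opposite strands over 30.2% of the exon bases of Hspb2. The strand setting of the counting is not stated, so reads of Cryab and Hspb2 in the overlap may not be told apart. The same limit holds for the levels of Dnaja4, which overlaps Wdr61 over 44.05% of its exon bases, Dnajc30, which overlaps Bud23 over 26.25%, Hspa1a, which overlaps Gm20481 over 19.01%, and Dnajc14, which overlaps Ormdl2 over 16.99%.

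**Figure D2:**
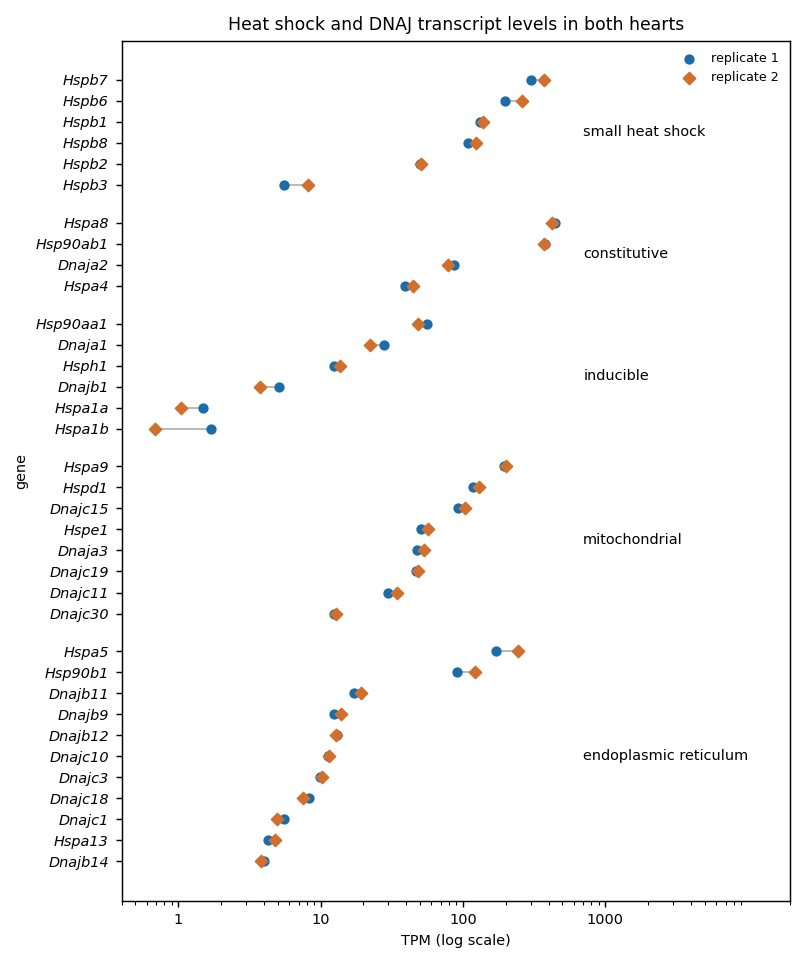
TPM of each small heat shock, constitutive, inducible, mitochondrial and endoplasmic reticulum gene (log axis) in replicate 1 (circles) and replicate 2 (diamonds), ordered by mean within each class. Hspa8 and Hsp90ab1 have the highest means, with 373 to 443 TPM, and Hspb7 also reached 373 TPM in replicate 2. Hspa1a and Hspa1b lie lowest, between 0.69 and 1.70 TPM.

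The constitutive members of a pair were higher than the inducible ones in both hearts. Hspa8, the constitutive cytosolic HSP70 (chr9:40800984-40810087), had 443 and 419 TPM. Its stress-induced counterparts Hspa1a and Hspa1b had 1.49 and 1.05 TPM, and 1.70 and 0.69 TPM, in replicates 1 and 2. The log2 ratio of Hspa8 to the 2 genes summed was 7.45 ± 0.54 (SD, n = 2). Hsp90ab1, the constitutive cytosolic HSP90, had 377 and 373 TPM against 56.0 and 48.6 TPM for its inducible partner Hsp90aa1, a log2 ratio of 2.84 ± 0.13.

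The co-chaperones were ordered the same way with smaller ratios. Dnaja2, a J-domain partner of Hspa8, had 86.3 and 78.6 TPM, and its inducible relative Dnaja1 had 28.0 and 22.3 TPM, a log2 ratio of 1.72 ± 0.14. Hspa4, a nucleotide exchange factor for HSP70, had 39.3 and 44.3 TPM, and its inducible relative Hsph1 had 12.5 and 13.7 TPM, a log2 ratio of 1.67 ± 0.03. Dnajb1, the classical inducible J-domain protein, had 5.14 and 3.73 TPM. The 4 ratios of a constitutive to an inducible gene were all counted as different by the rule given for the small heat shock genes. The inducible genes ranged from 52.3 ± 5.27 TPM for Hsp90aa1 to 1.20 ± 0.714 TPM for Hspa1b, so the class is not of one level.

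In the mitochondrial class Hspa9 led. Hspa9, the matrix HSP70 called mortalin, had 194 and 201 TPM in replicates 1 and 2. Hspd1, the large chaperonin subunit, had 118 and 129 TPM, and Hspe1, its small lid subunit, had 51.1 and 57.0 TPM. The log2 ratio of Hspd1 to Hspe1 was 1.19 ± 0.02. In the second quantification, made by the authors directly from reads, it was 0.80 ± 0.04.

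The other 5 mitochondrial genes are named as J-domain proteins. Dnajc15, a relative of the import motor protein, had 92.4 and 104 TPM, Dnaja3, a J-domain partner of Hspa9, had 47.7 and 53.4 TPM, and Dnajc19, tied to the import motor and in humans to a cardiomyopathy with ataxia, had 46.6 and 48.5 TPM. Dnajc11, of the inner membrane organising complex, had 29.8 and 34.5 TPM and Dnajc30, which associates with ATP synthase, had 12.5 and 12.8 TPM. All 8 mitochondrial genes reached 10 TPM in both hearts. The same count over all genes at 10 TPM was not made.

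The 11 genes of the endoplasmic reticulum were led by Hspa5 and Hsp90b1. Hspa5, the lumenal HSP70 called BiP, had 171 and 245 TPM, and Hsp90b1, the lumenal HSP90, had 91.5 and 122 TPM. The next was Dnajb11, a lumenal J-domain protein, with 17.3 and 19.3 TPM, and the lowest was Dnajb14, a membrane-bound one, with 4.01 and 3.83 TPM. Hspa5 and the mitochondrial Hspa9 could not be ordered: the log2 ratio of Hspa9 to Hspa5 was 0.18 in replicate 1 and −0.29 in replicate 2. It was the 1 ratio of 8 that was not counted as different.

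Of the 17 remaining cytosolic and nuclear DNAJ genes, 16 reached 1 TPM in both hearts. Dnajc7, which binds both HSP70 and HSP90, led with 49.3 and 43.2 TPM, ahead of Dnajb5 with 36.6 and 33.4 TPM and Dnajb2, which directs clients to the proteasome, with 35.5 and 32.3 TPM. The lowest was Dnajc6, the brain form of the clathrin uncoating factor auxilin, with 0.27 and 0.20 TPM. The ranges of Dnajb5 and Dnajb2 over the hearts overlapped. In the second quantification Dnajb2 was above Dnajc7, with 64.5 and 62.6 TPM against 57.7 and 54.0 TPM. Counting coding transcripts only, Dnajc7 had 25.7 ± 2.72 TPM, below Dnajb2 (31.8 ± 1.03), Dnajb5 (31.4 ± 1.92) and Dnajb4 (30.65 ± 0.085). The lead of Dnajc7 thus depends on the quantification and on which transcripts are counted.

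The 4 other HSP70 relatives were low and close together. Hspa4l, a relative of Hspa4, had 16.2 and 16.4 TPM, Hspa12b, an atypical HSP70 known from endothelial cells, had 12.9 and 11.6 TPM, Hspa12a had 7.66 and 8.72 TPM and Hspa14, which works at the ribosome, had 8.50 and 7.62 TPM. Of the 9 genes known from testis, 2 reached 1 TPM in both hearts. These were Hspa2 with 2.12 and 2.14 TPM and Hspa1l with 2.06 and 2.89 TPM. The lowest class member with counts in both hearts, Dnajb3, had 0.10 and 0.15 TPM. Of the 9, 4 had no count, which allows up to the limits in CPM given with the totals.

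Some genes carry the name without being chaperones. Hspbp1, an exchange factor for HSP70, had 10.4 and 11.5 TPM, Hspb11, a subunit of the intraflagellar transport complex, had 3.87 and 3.75 TPM, and Hspbap1 had 1.23 and 1.09 TPM. Of the 6 DNAJ genes left without a class, Dnajc4 with 18.2 and 20.1 TPM, Dnajc28 with 10.5 and 8.72 TPM and Dnajc16 with 6.14 and 8.21 TPM were highest, and Dnajc22 with 0.24 and 0.16 TPM was lowest.

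The partners of these chaperones outside the naming rule were all present. Of 24 genes for heat shock factors, BAG proteins, other co-chaperones and organelle chaperones, and Cryab, 24 reached 1 TPM in both hearts, with a median of 25.6 TPM. Of all protein-coding genes 49.5% did, and the list was chosen with earlier results of these data known. After Cryab came Bag1, an exchange factor, with 91.1 and 94.6 TPM, Bag6, a quality control factor for membrane proteins, with 83.6 and 83.1 TPM, Bag3, the partner of Hspb8, with 76.8 and 78.8 TPM, and Unc45b, the myosin chaperone, with 57.3 and 61.6 TPM. Bag4 was lowest with 2.27 and 2.04 TPM.

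The hearts were compared on counts scaled by the trimmed mean of M values (TMM), as log2 ratios of replicate 1 over replicate 2, for genes with a mean of 1 CPM or more. Of 65 members that passed, 1 was 2-fold or more higher in replicate 1, where 0.898% of the 12911 genes compared were. None was 2-fold or more higher in replicate 2, where 0.294% of genes were. At 1.5-fold in either direction the count was also 1, beside 4.55% of genes. With 1 library per animal there is no replicate test of any single gene. The median size of the log2 ratio was 0.11 over the members and 0.12 over all genes compared, so as a whole the members differed between the hearts about as much as other genes did.

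The gene that passed 2-fold was Hspa1b (chr17:34956436-34959238). Its estimated counts were 150 and 66.0, which gives a log2 ratio of 1.32 with an exact binomial 95% interval of 0.90 to 1.76. Hspa1a had 139 and 106 estimated counts, a log2 ratio of 0.53 (0.16 to 0.91). Because their transcripts share 49.9% of the 100-base words of Hspa1b, the split of reads between them is uncertain. Summed, they had 289 and 172 counts, a log2 ratio of 0.89 (0.61 to 1.17), which is under 2-fold.

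With TMM scaling the inducible class was the one class of the 10 with every member higher in replicate 1, and with spike-in scaling so were the constitutive and mitochondrial classes and the 3 genes named after partners. Dnajb1 had 486 and 379 counts, a log2 ratio of 0.50, and Dnaja1 had 1393 and 1239 counts, a ratio of 0.31, followed by Hsp90aa1 at 0.09 and Hsph1 at 0.07. The median of the 6 was 0.40, beside −0.01 over all genes compared and 47.81% of all genes higher in replicate 1. The sign of all 6 held under the 5 scalings and quantifications tried on counts, but the interval of Hsph1 includes 0 (−0.06 to 0.19). In TPM Hsph1 was lower in replicate 1. In TPM of the second quantification Hsp90aa1 was lower there too, with 70.7 TPM in replicate 1 and 73.2 TPM in replicate 2. Of 8 immediate early genes, which cells switch on quickly after stimulation, 5 were higher in replicate 1, 3 were lower, and the median log2 ratio was 0.09. Jun had 27.2 TPM in replicate 1 and 14.7 TPM in replicate 2, and its difference makes up most of that between the list's sums of 62.4 and 46.9 TPM. Atf3 was also higher in replicate 1 (log2 ratio 0.83), Dusp1, Junb and Ier2 lay between 0.06 and 0.19, and Fos, Fosb and Egr1 were lower in replicate 1 (−0.33, −0.48 and −0.18). None was at 0. The adipocyte and erythroid markers were also higher in replicate 1, and the part of any of these in the inducible genes was not tested.

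**Figure D3:**
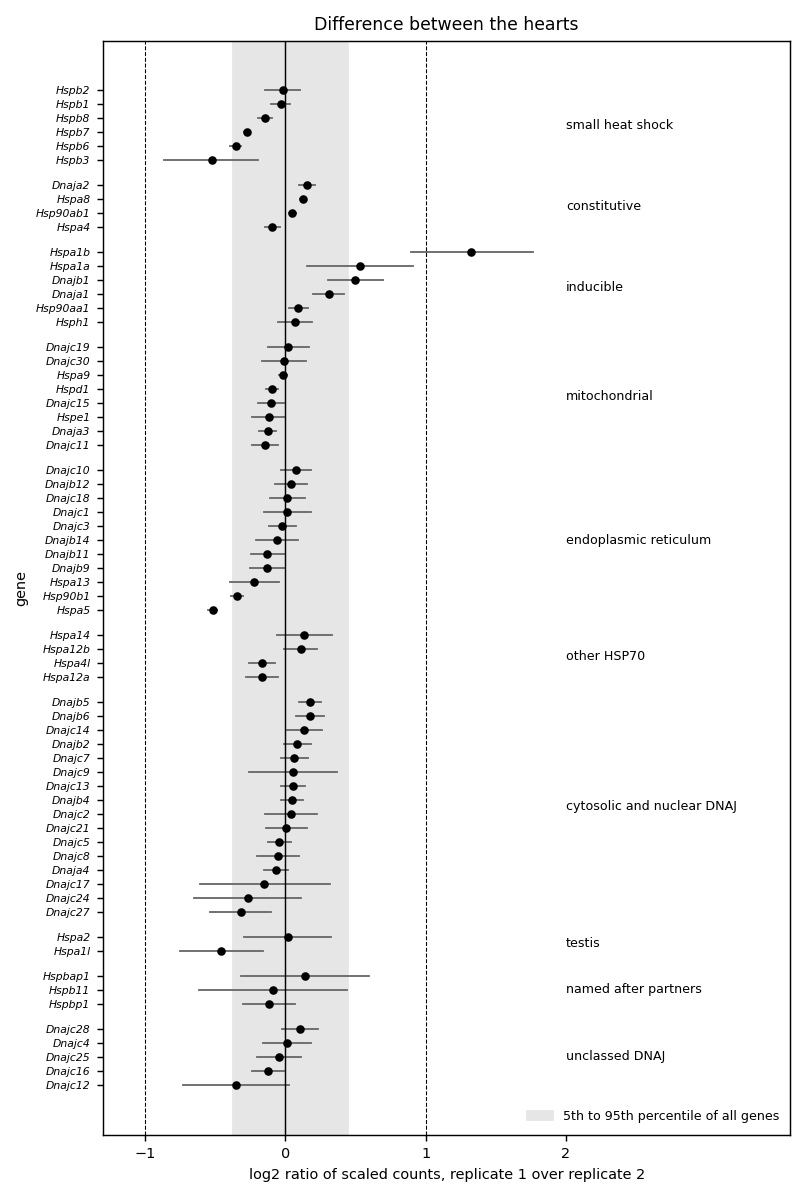
Log2 ratio of TMM-scaled counts, replicate 1 over replicate 2, for the 65 members with a mean of 1 CPM or more, by class, with exact binomial 95% intervals for counting error. Dashed lines mark 2-fold, and the grey band is the 5th to 95th percentile of all genes, −0.37 to 0.44. Hspa1b at 1.32 is the one member past a dashed line.

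The small heat shock genes leaned towards replicate 2. All 6 had a ratio below 0, with a median of −0.21, from Hspb3 at −0.53 with 123 and 195 counts through Hspb6 at −0.35 and Hspb7 at −0.27 to Hspb1 at −0.03 and Hspb2 at −0.02. The intervals of Hspb1 and Hspb2 include 0. Scaled to the ERCC spike-ins, which moves the median of all genes from −0.01 to 0.13, 3 of the 6 had a ratio above 0 and 3 below, and Hspb1 also changed sign in the second quantification. The class median with spike-ins was −0.07, below that of all genes. The mitochondrial genes had 7 of 8 ratios below 0 with a median of −0.10, and all 8 above 0 with spike-in scaling.

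The endoplasmic reticulum class was split. Hspa5 had 12600 and 19883 counts, a log2 ratio of −0.52 (−0.55 to −0.49), and Hsp90b1 had 8066 and 11292 counts, a ratio of −0.35. Hyou1, an HSP70 relative of the same compartment among the partners, had 17.3 and 25.1 TPM and a ratio of −0.43, the lowest of the 24 partners. The other 9 genes of the class lay between Hspa13 at −0.22 and Dnajc10 at 0.08. Hspa5 and Hsp90b1, both with the ER stress element in the stretches printed above, lay below the other 9, while Dnajc3, which also holds it, was at −0.02.

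Beyond these classes the ratios furthest from 0 rested on few counts. Hspa1l was at −0.46 with 160 and 241 counts, and 71.9% of its exon bases overlap an antisense gene, so the limit given for Hspb2 holds for it too. Dnajc12, a co-chaperone of the aromatic amino acid hydroxylases, was at −0.35 with 104 and 146 counts and an interval of −0.73 to 0.02. Towards replicate 1 the next after Hspa1b, Hspa1a, Dnajb1 and Dnaja1 was Dnajb5 at 0.18. Of the 24 partners 0 passed 2-fold in either direction, beside 1.19% of the 12911 genes compared, and their median ratio was −0.02.

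Which transcripts carried the levels was read for the 42 members with a mean of 10 TPM or more. In 41 of these the same transcript led in both hearts, and in 28 it held over 50% of the gene's TPM in both. Such counts were not made over all genes, so nothing particular to the members can be read from them. The second quantification, made by the authors directly from reads, had the same leading transcript in 34 of the 42, or in 31 of the 39 with more than 1 transcript. The 8 others were Dnaja2, Dnajb2, Dnajb4, Dnajc5, Dnajc11, Dnajc13, Dnajc19 and Hsph1. Dnajb4-202 held 92.3% of Dnajb4 in the first and 14.4% in the second quantification, and in Dnaja2 the lead passed to the retained intron transcript Dnaja2-202 with 57.2% ± 1.80. Which transcript leads in these 8 genes thus depends on the quantification. Hspb1 was carried to 99.8% ± 0.071 by 1 transcript, Hspa9 to 98.0% ± 0.057 and Hspd1 to 96.7% ± 0.30 (SD, n = 2). Hspa8 was divided, with 53.3% ± 3.20 on Hspa8-201 and 30.7% ± 3.49 on Hspa8-202. In the second quantification Hspa8-202 was listed at 0 in both hearts. The exception to the shared lead was Dnajc19, where the coding Dnajc19-202 held 52.5% and 47.1% and the retained intron transcript Dnajc19-205 held 45.1% and 49.9%, and Dnajc19-205 was again listed at 0 in the second quantification.

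Dnajc15 stood out by the annotation of its transcripts. Its 98.1 ± 8.12 TPM lay 61.8% ± 0.56 on Dnajc15-203, a 419-base processed transcript, and 35.5% ± 0.42 on Dnajc15-201, annotated as a nonsense-mediated decay target. The transcript annotated as protein-coding, Dnajc15-202 with 6193 bases, had 2.63 and 2.75 TPM, or 2.75% ± 0.14 of the gene. The second quantification gave Dnajc15-203 62.4% and 62.6%. Among the 42 members, 10 had over 20% of their TPM on transcripts not annotated as coding. The same count over all genes was not made. After Dnajc15 these were led by Dnaja2 with 47.9% ± 0.59, Dnajc19 with 47.5% ± 3.42, Dnajc7 with 44.4% ± 0.71 and Dnajc11 with 41.0% ± 0.092. Counting coding transcripts only, the medians of the constitutive, mitochondrial and inducible classes were 180 TPM, 37.7 TPM and 6.93 TPM, in the same order, and that of the small heat shock class was 125 TPM.

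**Figure D4:**
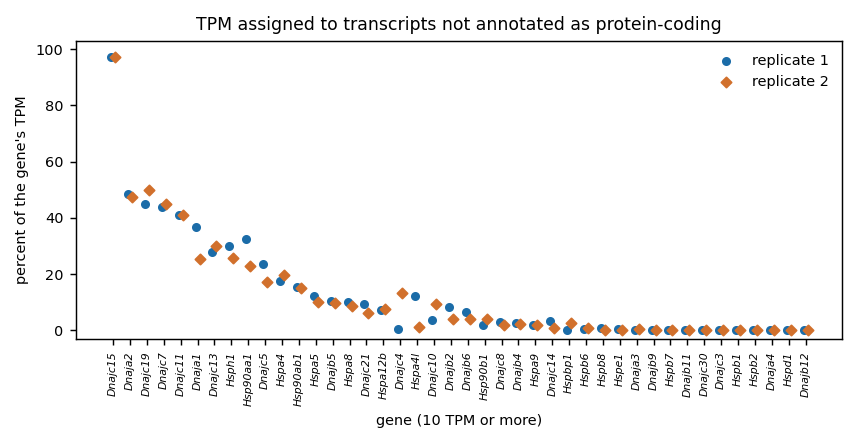
Percent of each gene's TPM on transcripts not annotated as protein-coding (vertical axis) for the 42 members with a mean of 10 TPM or more, in replicate 1 (circles) and replicate 2 (diamonds). By the mean of the 2 hearts Dnajc15 lies at 97.25%, and 9 further genes lie between 20.4% and 47.9%.

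Several members have near copies in the genome, which limits how far their levels belong to the named gene. Of the 74 members, 21 share at least one 100-base word of their leading transcript with another gene. The share was 70.6% for Dnaja1, 62.8% for Hspa8, 56.3% for Hspb1, 53.2% for Hsp90aa1, 49.9% for Hspa1b and 48.6% for Hspa1a. It was 31.0% for Dnajb6, 26.9% for Hspd1 and 20.4% for Hspe1. AC117239.2, which shares words with Hspe1, had 12.6 and 15.5 TPM, but 3.78 and 4.83 TPM in the second quantification. The level of Hspe1 and its ratio to Hspd1 carry this limit. Among the genes that share the most words with each member, the highest level was that of Gm15459, the gene closest to Hspa8 by this measure, annotated as a processed pseudogene (chr5:5781615-5783555), with 141 TPM in replicate 1 and 130 TPM in replicate 2. Of its 1842 words 500 are not found in Hspa8 transcripts, and the second quantification gave it 148 and 143 TPM. Hsp25-ps1, the processed pseudogene closest to Hspb1, had 18.5 and 17.1 TPM, with 78 of its 531 words its own. The levels of Hspa8 and Hspb1 given above leave these out.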

How the data were processed

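Gene tables, transcript tables and a second set of transcript tables were used for 2 hearts. Per the file headers and the text files deposited with them, the assembly is mm10 with GENCODE M21, and each library was processed alone. The first set came from a transcriptome alignment and the second directly from reads; their tools are named in no source used here. The estimated counts were deposited by the authors unnormalized, with shared reads divided among features. TPM values were scaled by the authors to a fixed total over all features, spike-ins included. The percent of a gene's TPM on each transcript, and the bounds of the TPM interval (unit signal), were deposited by the authors.

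Members were found by symbol in the transcript tables and joined by gene identifier. Members, classes and lists were chosen with earlier results of these data known. Named genes are every member of the small heat shock, constitutive, inducible and mitochondrial classes, the 3 highest and the lowest of every other class, the 5 members with the largest ratio between the hearts in each direction, and the 5 highest partners and the lowest. Any further gene was named after its values were seen. The tables held no group contrast, so no test was run and no p-value made. Counts were rounded for scaling only, with TMM in edgeR 4.0.16 and median-ratio factors in DESeq2 1.42.0 (R 4.3.3). The fold step was tested on simulated data: 60% of genes with a true fold of 2 and 0.0786% of 12720 unchanged genes were called. The simulation used the same fixed dispersion for every gene and changed only genes at 2 CPM or more. It raised every count under 3 to 3, while in the hearts only counts of 0 were raised. A true fold of 2 also equals the threshold itself. The simulated rates therefore do not describe the real hearts, where 1.19% of 12911 genes passed 2-fold. Intervals of ratios are exact binomial at 95%. Words of 100 bases were compared across all GENCODE transcripts. Reads from the CAST alleles against the mm10 reference were not tested. tRNA rows, 26248 in each table, and spike-ins were left out of gene totals. Tables were joined in Python 3.11.15 with pandas 2.3.3, intervals came from scipy 1.17.1, and figures from matplotlib 3.10.9.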

Additional observations from a re-analysis of the deposited data

How the results depend on the processing

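Of the recomputed values, 153 kept their direction and side or moved by less than the spread, 22 moved and 2 reversed. Those kept can still differ in size. At 5 TPM 50 members were detected in both hearts instead of 64, and the ratio of Hspd1 to Hspe1 fell from 1.19 to 0.80 in the second quantification. Counted among the kept values are also the ER stress element, a different motif, and most values from 1 heart alone. No paired analysis was possible because there is 1 group. Class medians in the second quantification were 171 TPM for small heat shock, 276 for constitutive, 12 for inducible and 72.8 for mitochondrial genes. That scale gave a median of 1.23 times the first over 64 members and 1.21 times over all protein-coding genes. The second quantification also gave log2 ratios of 0.80 ± 0.04 for Hspd1 to Hspe1, 0.40 ± 0.27 for Hspb6 to Hspb1 and 1.00 ± 0.20 for Hspb7 to Hspb1. The inducible median was 9.13 TPM from posterior means and 13.1 TPM without the member under 1 TPM. With coding transcripts only, an alternative chosen after seeing the data, the constitutive, inducible and mitochondrial medians were 180, 6.93 and 37.7 TPM, and the log2 ratio of Hspa9 to Hspa5 was 0.09 instead of −0.05. Over all transcripts and without replicate 2, the ratio of Hspa9 to Hspa5 was 0.18. The log2 ratio of Dnaja2 to Dnaja1 with coding transcripts only was 1.32 ± 0.01 instead of 1.72. With no filter on low counts 2 members passed 2-fold, Hspa1b in replicate 1 and 1 more, Dnajc22 with 3 and 8 counts, in replicate 2, and with a mean of 5 CPM 0 passed, since Hspa1b was not compared. Under the other scalings the 1 member was Hspa1b. At 1 TPM the leading transcript was shared by 64 of 65 members and held over 50% in 47. The heat shock element in 2 units was found in 16 members and in 3 units in 4.

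Leaving out one heart at a time gave 64 to 65 members at 1 TPM. Class medians ran from 120 to 130 TPM for small heat shock, 226 to 232 for constitutive, 8.70 to 8.82 for inducible and 49.4 to 55.2 for mitochondrial genes, and leading transcripts over 50% from 29 to 31. Log2 ratios ran from 7.07 to 7.83 for Hspa8 to Hspa1a with Hspa1b, 2.75 to 2.94 for Hsp90ab1 to Hsp90aa1, 1.65 to 1.69 for Hspa4 to Hsph1, 1.62 to 1.81 for Dnaja2 to Dnaja1, 1.18 to 1.21 for Hspd1 to Hspe1, −0.29 to 0.18 for Hspa9 to Hspa5, 0.60 to 0.92 for Hspb6 to Hspb1 and 1.20 to 1.44 for Hspb7 to Hspb1. The cause of each move was not tested. Depth limits the genes with few counts, among them Hspa1a, Hspa1b and Dnajc12.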
